A study of Mus musculus with 10 samples.

Results

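The genes described here are those whose upstream region carried H3K27me3 peaks in both low-dose resistant lines and in neither high-dose line, or the reverse. R100 and R500, grown in 100 and 500 nM of mafosfamide, formed the low-dose side, and R1000 and R4000, grown in 1000 and 4000 nM, formed the high-dose side. A gene was counted as covered in a line where peaks lay over 150 bp or more, that is 3 bins of 50 bp, within the 5 kb before its transcription start site (TSS). Of 37310 annotated genes, 745 were covered in R100 and R500 and in neither high-dose line (the low-dose-only genes), which is 2% of all genes. Only 1 gene, Foxo6, was covered in R1000 and R4000 and in neither low-dose line, or 0.00268% of all genes. Among the 22380 protein-coding genes the 2 groups held 579 genes (2.59%) and 1 gene (0.00447%). These counts changed with the length of the lists, and the order of the sides turned when all lists were cut to the same covered length, as described below.

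All lines came from 1 mouse B-cell lymphoma line on the C57BL/6J background, in which Myc is under an immunoglobulin heavy chain enhancer (Eμ-Myc) and Cdkn2a is deleted (Cdkn2a-/-). Every line shares both alterations, the parental line included. The resistant lines were raised by dose escalation of mafosfamide, an alkylating agent related to cyclophosphamide, and surviving cells were harvested at day 10 (R100), day 18 (R500), day 23 (R1000) and day 37 (R4000). Dose, time in culture and passage through the lower doses therefore cannot be told apart, and each line is 1 selected population. The chromatin was taken from cells growing without the drug. The parental line, which was never selected, was not used to choose the genes, so its values do not follow from the rule. Its list is, however, closer in length to the high-dose lists than to the low-dose lists.

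H3K27me3 is the trimethyl mark that Polycomb repressive complex 2 (PRC2) places on lysine 27 of histone H3 through its catalytic subunit Ezh2. The mark is typical of silent genes, above all of developmental regulators whose promoters are rich in CpG, and it is removed by demethylases or diluted when cells divide. In B cells PRC2 activity is best known from the germinal centre, where Ezh2 holds genes of cell-cycle arrest and differentiation silent.

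The sequences of the peak stretches shared by both lists of a side show what the called regions look like. They are the 3 low-dose-only genes ranked first by covered length with no peak in the high-dose lists, and the only high-dose-only gene. All are plus-strand sequence of mm9, with CpG dinucleotides in capitals. The first stretch lies between 311 and 660 bp upstream of Scube3, outside exons, and 300 bp of it are printed (chr17:28278626-28278925).

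Scube3: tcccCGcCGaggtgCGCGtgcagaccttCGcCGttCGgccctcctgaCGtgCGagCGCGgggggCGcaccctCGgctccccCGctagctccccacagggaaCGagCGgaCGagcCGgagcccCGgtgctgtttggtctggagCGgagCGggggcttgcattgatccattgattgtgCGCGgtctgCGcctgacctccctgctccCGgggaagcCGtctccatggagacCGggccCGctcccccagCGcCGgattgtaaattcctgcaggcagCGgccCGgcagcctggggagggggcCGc

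The second stretch (chr7:148454801-148455000) is 2421 to 2620 bp upstream of Irf7, within the body of the neighbouring gene Cdhr5, with 17 bp in exons.

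Irf7: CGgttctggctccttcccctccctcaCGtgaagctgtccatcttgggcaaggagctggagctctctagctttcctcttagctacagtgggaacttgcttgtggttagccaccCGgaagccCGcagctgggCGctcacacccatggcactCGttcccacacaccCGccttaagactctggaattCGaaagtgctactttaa

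The third (chr13:55590151-55590350) is 622 to 821 bp upstream of Dbn1, outside annotated genes.

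Dbn1: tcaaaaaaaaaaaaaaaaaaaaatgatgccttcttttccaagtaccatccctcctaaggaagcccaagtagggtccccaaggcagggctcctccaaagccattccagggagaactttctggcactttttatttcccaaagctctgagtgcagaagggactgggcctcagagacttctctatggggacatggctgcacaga

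The fourth (chr4:119960801-119960900) is 847 to 946 bp upstream of Foxo6 and is the stretch shared by R1000 and R4000.

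Foxo6: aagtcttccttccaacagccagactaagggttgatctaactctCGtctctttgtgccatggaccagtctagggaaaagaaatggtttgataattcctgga

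The 300 bp at Scube3 held 33 CpG and 72% GC, the 200 bp at Irf7 held 8 CpG and 56.5% GC, the 200 bp at Dbn1 held no CpG and 47% GC, and the 100 bp at Foxo6 held 1 CpG and 44% GC. The genes were thus covered over stretches of unlike base composition, from a dense CpG island-like stretch to one without any CpG. None of the 4 printed stretches held CAGGTG on either strand, a form of the E-box CANNTG that E2a (Tcf3) can bind.

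Each line has 1 deposited list of peaks with no height, score or read count, so depth is unknown and no difference between lines was tested. Intervals on shares are 95% Wilson intervals over genes, which cover counting error only. The 2 low-dose lists were far longer than the others. The R100 list held 25180 distinct peaks over 5.04 Mb and the R500 list 21888 peaks over 4.53 Mb, against 9595 peaks over 1.61 Mb in R1000, 6820 over 1.07 Mb in R4000 and 10778 over 1.63 Mb in the parental line. The R100 and R500 lists are also the only ones that hold every peak 2 times, so a difference in how the lists were made moves with the sides, and its part in the result was not tested. The median peak width was 100 bp in every list.

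The low-dose-only genes with the longest coverage and no base covered in either high-dose list included secreted, signalling and developmental genes. Scube3, which encodes a secreted EGF-repeat protein, had 50 bp covered in the parental line, 1050 bp (R100), 850 bp (R500), and 0 bp (R1000 and R4000). Dbn1, the actin-binding protein drebrin of neurons, had 750 bp in both R100 and R500 and 0 bp in the parental and high-dose lines. Irf7, a regulator of type I interferon genes, had 50 bp (parental), 750 bp (R100), 930 bp (R500) and 0 bp in the high-dose lines. The values in the resistant lines follow from the ranking, and the parental list, which the ranking did not use, held at most 50 bp in these 3 genes.

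A pair of forkhead genes of the same subfamily stood in this group. Foxb1 had 50 bp (parental), 1197 bp (R100), 700 bp (R500) and 0 bp (R1000 and R4000). Foxb2 had 0, 1421, 671, 0 and 0 bp in the same order, which is kept for all values given without line names below. Sox5, a transcription factor of cartilage and neural development, had 50 bp (parental), 1104 bp (R100) and 650 bp (R500). Its coverage common to both low-dose lists was a single run of 600 bp, from 654 to 1253 bp upstream of the TSS. Hoxd12, of the Hoxd cluster, had 100 bp (parental), 615 bp (R100) and 750 bp (R500). In the 2 kb on both sides of the TSS, Sox5 and Hoxd12 stayed low-dose only, whereas Foxb1 and Foxb2 did not. Foxb1 had 754 bp in R100 alone there, and Foxb2 had 0, 1900, 1750, 300 and 200 bp.

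The remaining genes named by this rule were of mixed function. Fabp3, a fatty acid-binding protein of muscle, had 50, 1000 and 700 bp in the parental, R100 and R500 lists. Scn4b, an auxiliary subunit of the voltage-gated sodium channel, had 100, 650 and 850 bp. Cd83, a surface protein of activated B cells and dendritic cells, had 100 bp (parental) and 626 bp in each low-dose list, over the same bases up to the TSS. Kank1, an adaptor at focal adhesions, had 65, 615 and 715 bp, and Srcin1, an inhibitor of Src signalling, had 0, 600 and 900 bp. In these genes too R1000 and R4000 had 0 bp, which the ranking required.

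**Figure D1:**
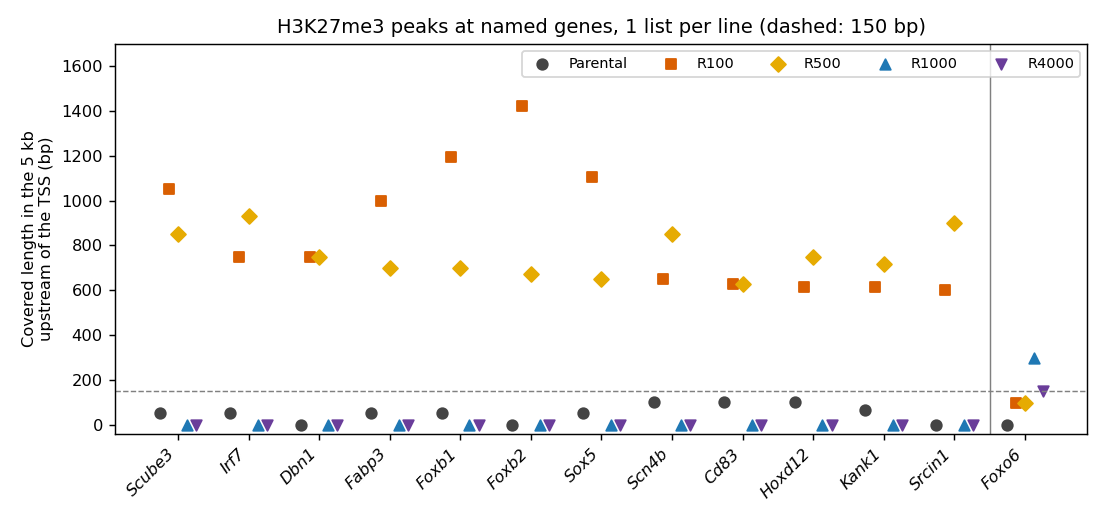
Covered length (bp) in the 5 kb upstream of the TSS for the 12 named low-dose-only genes and, right of the vertical line, Foxo6. Each point is 1 line's list. R100 and R500 lie between 600 and 1421 bp in the 12 genes, R1000 and R4000 at 0 bp and the parental line at 0 to 100 bp.

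Longer coverage was found where short peaks in the high-dose lists were allowed. Smarcd3, a subunit of SWI/SNF chromatin remodelling complexes, had 250 bp (parental), 1600 bp (R100), 1700 bp (R500), 50 bp (R1000) and 100 bp (R4000). Nphs1, the podocyte protein nephrin, had 250, 1550, 1150, 50 and 100 bp. Gadd45g, a stress-response gene, had 100, 1450, 800, 100 and 100 bp. Batf3, a transcription factor of dendritic cells and lymphocytes, had 0, 1100, 850, 0 and 100 bp, and E2f7, a repressor of cell-cycle genes, had 0, 800, 1150, 50 and 0 bp. In each of these the high-dose lists held at most 100 bp and the low-dose lists at least 800 bp in the upstream window. In the 2 kb on both sides of the TSS, Gadd45g had 1300, 2400, 1800, 1050 and 700 bp. Batf3 had 400, 1550, 1450, 300 and 250 bp there. Both genes were thus covered in every resistant line near the TSS, whereas Smarcd3, Nphs1 and E2f7 stayed low-dose only.

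Most low-dose-only genes had much shorter coverage. Their median covered length was 350 bp (R100) and 300 bp (R500), with maxima of 1850 and 1700 bp. Both low-dose lists reached 300 bp in 336 of the 745 genes, 500 bp in 122 and 1000 bp in 6. Many genes lay close to the rule's limit. In 161 genes a low-dose list held exactly 150 bp, and 412 further genes missed the group with 100 to 149 bp in the shorter low-dose list. On the other side of the rule, 234 members had at least 100 bp in a high-dose list, and 174 genes were left out by a high-dose list with 150 to 199 bp.

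Short high-dose peaks lay upstream of many members. No base was covered by R1000 or R4000 in 347 of the 745 genes (46.6%). R1000 held 0 bp in 455 genes and 100 to 149 bp in 165, and R4000 held 0 bp in 533 and 100 to 149 bp in 95.

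The low-dose lists did not always cover the same bases. R100 was the longer of the pair in 365 genes, R500 in 290, and they were equal in 90. The bases common to both lists came to at least 150 bp in 420 genes (56.4%), with a median of 150 bp, and to none in 119 genes (16%). Across the 745 genes the covered lengths in R100 and R500 had a Spearman correlation of 0.51, a description of genes chosen for coverage in both. Where a shared stretch existed (626 genes), its nearest annotated TSS was the gene's own in 462 (73.8%) and another gene's in 164 (26.2%). In 190 (30.4%) it lay within the body of another protein-coding gene, as at Irf7. The 745 genes fell into 684 groups of genes with overlapping windows, so the windows of 114 genes overlapped that of another member and are not independent counts.

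The shared bases lay near the TSS. The first kb upstream held 66.1% of them, the next kb 15.7%, and each further kb 5.76 to 6.62%. The share of low-dose-only genes under a peak was 32.3% in R100 and 28.9% in R500 at 300 bp upstream, and R1000 and R4000 reached 3.62% and 2.68% at the TSS, their highest values upstream. Downstream of the TSS, which the rule did not use, R100 reached 35.4% at 300 bp, R500 32.6% at 400 bp, R1000 11.5% at 700 bp, R4000 9.4% at 400 bp and the parental line 10.9% at 600 bp. In the high-dose lists the share of these genes under a peak was thus higher after the TSS than in the window of the rule.

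**Figure D2:**
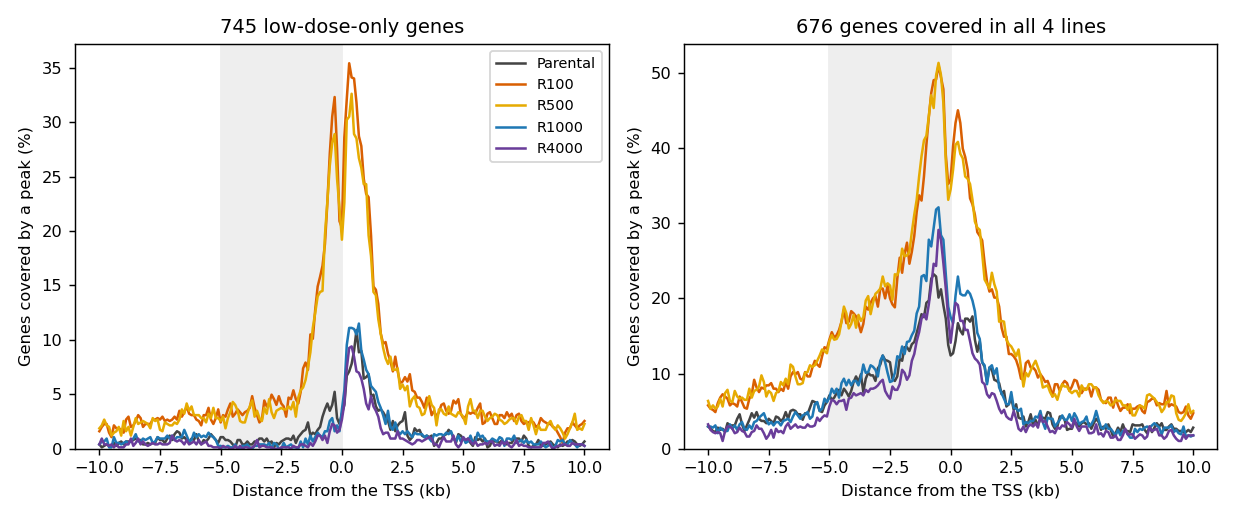
Share of genes covered by a peak (%) against the distance from the TSS (kb, negative upstream), for the low-dose-only genes (left) and the genes covered in all 4 resistant lines (right), 1 curve per line. The shaded 5 kb are the window of the rule. At left R1000 and R4000 stay at 3.62% or less in the window and reach 11.5% and 9.4% downstream, where the rule did not look.

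The pattern of single genes changed with the window. In the 2 kb on both sides of the TSS, 354 of the 745 genes (47.5%) were still low-dose only, 141 (18.9%) were covered in all 4 lines, 180 (24.2%) had another pattern and 70 (9.4%) were covered in none. Of the 12 named genes, 5 stayed low-dose only. Srcin1 then had 0 bp (parental), 1111 bp (R100), 1050 bp (R500) and 0 bp (R1000 and R4000), whereas Scube3 had 50, 1350, 1661, 200 and 250 bp and was covered in all 4. In this window 940 protein-coding genes (4.2%) were low-dose only and 2 (0.00894%) high-dose only. Within 10 kb of the TSS no R1000 or R4000 peak was found at 132 of the 745 genes (17.7%, 95% CI 15.1 to 20.6%), against 82.2% of every annotated gene.

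Genes covered in both low-dose lists numbered 1975, of which 37.7% (95% CI 35.6 to 39.9%) were low-dose only. Genes covered in both high-dose lists numbered 694, of which 676 (97.4%) were covered in both low-dose lists as well. All but Foxo6 (693 genes) were covered in at least 1 low-dose list. The bases showed a similar order. Of the 2448.7 kb covered in both R100 and R500, 52.7% lay in neither high-dose list, and of the 486.6 kb covered in both R1000 and R4000, 4.01% lay in neither low-dose list. R1000, with the longer list of the high-dose pair, shared more genes with the low-dose side than R4000: 410 genes were covered in R100, R500 and R1000 and 144 in R100, R500 and R4000.

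The share of low-dose-only genes fell with the length of coverage. Where the shorter of the R100 and R500 lengths was 150 to under 300 bp, 409 of 594 genes (68.9%, 95% CI 65 to 72.4%) were low-dose only. This share was 48.2% of 444 genes from 300 to under 500 bp, 21.2% of 547 genes from 500 to under 1000 bp, and 1.54% of 390 genes at 1000 bp or more. Of the last group 317 genes (81.3%) were covered in all 4 lines. The low-dose-only genes thus came mostly from short coverage, while wide coverage in the low-dose lines was mostly present in the high-dose lines too.

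**Figure D3:**
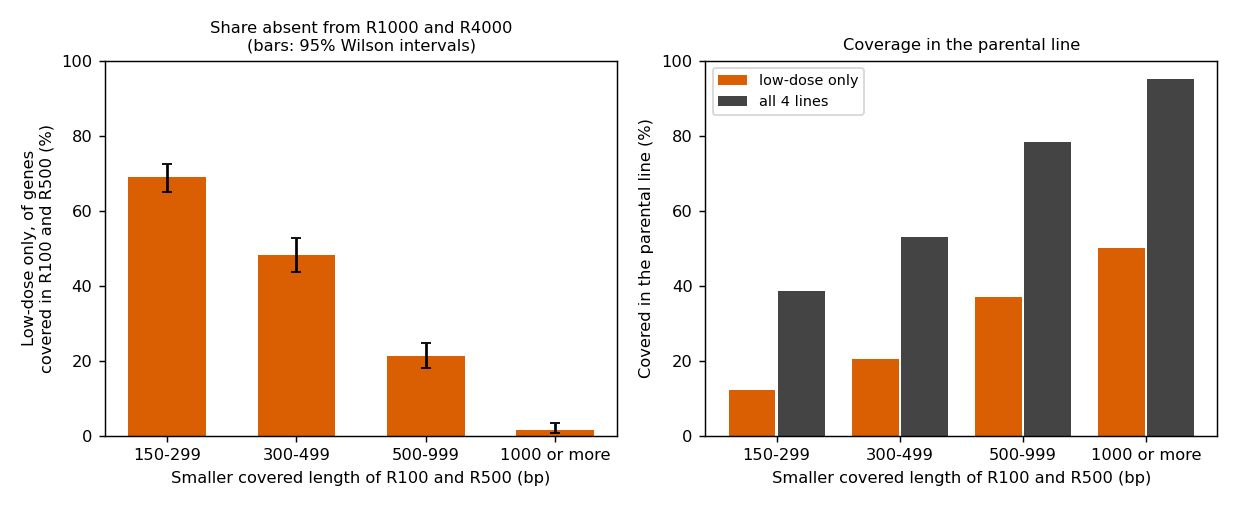
Left, share of genes covered in R100 and R500 that were low-dose only (%), by the shorter covered length of the pair (bp), with 95% Wilson intervals. Right, share of low-dose-only genes and of genes covered in all 4 lines that were covered in the parental line (%). The left share fell from 68.9% to 1.54%, and in each length class the parental share was higher for genes covered in all 4 lines.

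The parental line, which the rule did not use, covered 140 of the 745 low-dose-only genes (18.8%, 95% CI 16.1 to 21.8%). The same line covered 550 of the 676 genes covered in all 4 resistant lines (81.4%, 95% CI 78.3 to 84.1%) and 3.04% of every annotated gene. It held no base at 420 low-dose-only genes (56.4%). The parental list covered 1.63 Mb and held each peak 1 time, closer to the high-dose than to the low-dose lists. The part of list length and list making in these parental shares was not tested. Genes covered in R100, R500 and R1000 were covered in the parental line in 52.2%, and those covered in R100, R500 and R4000 in 29.2%. Parental coverage also rose with length, so the classes were compared at like lengths. It was 12.2% of low-dose-only genes and 38.7% of genes covered in all 4 lines in the shortest class, 20.6% and 53% in the next, and 37.1% and 78.4% from 500 to under 1000 bp. In 13 low-dose-only genes the parental coverage was longer than in both low-dose lists. One of these was Rpl26, a ribosomal protein gene, with 350 bp (parental), 300 bp (R100), 250 bp (R500) and 0 bp (R1000 and R4000).

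Which side held more genes changed with whether the lists were brought to a like number of peaks or a like covered length. With each list cut to its 6820 widest peaks, the number in R4000, 399 genes were low-dose only and 11 high-dose only, and 374 of the 399 were among the 745. Those cut lists were still unlike in covered length, with 3.4 Mb (R100) and 3.25 Mb (R500) against 1.47 Mb (R1000) and 1.07 Mb (R4000). With each list cut to its widest peaks up to the 1.07 Mb of R4000, 12 genes were low-dose only and 271 high-dose only. In that cut R100 kept 745 peaks and R500 772, all at least 900 bp wide, whereas R1000 kept 2889 peaks of at least 150 bp and R4000 all 6820, so the narrow peaks of the low-dose lists were removed and those of R4000 were not. The order of the sides thus turned between lists of equal number and lists of equal covered length. None of the 12 named low-dose-only genes remained low-dose only at equal covered length. With peaks narrower than 500 bp left out of every list, 364 genes were low-dose only and none high-dose only. Only 62 of these 364 (17%) were among the 745, so this was mostly another set of genes. Leaving out 1 line at a time eased the rule and gave 1183 low-dose-only genes without R100, 1513 without R500, 1155 without R1000 and 889 without R4000. The high-dose-only genes then numbered 6, 13, 46 and 55 in the same order.

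**Figure D4:**
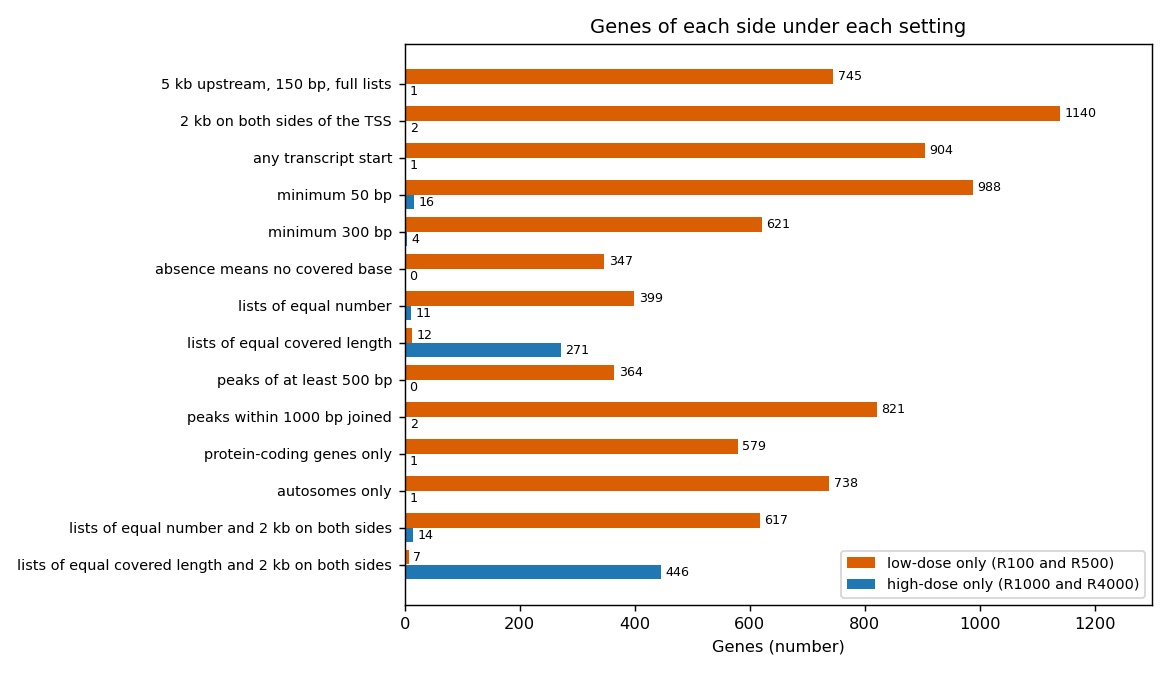
Number of genes of each side under each setting (bars from 0, values printed). The low-dose bar is longer except in the 2 settings with lists of equal covered length, where 12 against 271 and 7 against 446 genes were found.

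Foxo6, a forkhead factor of the insulin-signalling branch, had 0 bp (parental), 97 bp in each of R100 and R500, 297 bp (R1000) and 150 bp (R4000). R4000 thus stood exactly at the limit and the low-dose lists held a part of the same window. In the 2 kb on both sides of its TSS, Foxo6 had 700 bp (parental), 1600 bp (R100), 1300 bp (R500), 450 bp (R1000) and 800 bp (R4000), so it was covered in all lines there. Under a looser rule, 100 genes were covered in at least 1 high-dose list and in neither low-dose list, 55 in R1000 and 46 in R4000, and the parental line covered 9 of them. Rnf2, which encodes the Ring1B subunit of Polycomb repressive complex 1, was among them with 50 bp (parental), 0 bp (R100 and R500), 50 bp (R1000) and 200 bp (R4000). In the 2 kb on both sides of its TSS, R100 held 150 bp and R4000 200 bp, so a low-dose list covered Rnf2 there too.

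Gene families were described by lists of symbols, 27 in all, whose counts are read against the 2.59% of protein-coding genes that were low-dose only. In the upstream window 5 families of developmental transcription factors stood above this share. They were also covered more often, whatever the pattern. R100 covered 33 of 40 Hox, 61 of 106 other homeobox and 14 of 43 forkhead genes. It covered 15 of 41 Sox, T-box and Gata and 20 of 48 bHLH genes, against 2045 of all 22380 protein-coding genes. Of the 1432 protein-coding genes covered in both low-dose lists 40.4% were low-dose only, and the families were not tested against that share. In the 2 kb before and after the TSS, where 4.2% of protein-coding genes were low-dose only, the homeobox (21.7%), Hox (22.5%) and Sox, T-box and Gata lists (12.2%) were above it, whereas 2 of 43 forkhead genes (4.65%) were near it and 1 of 48 bHLH genes (2.08%) was below it. Of 106 homeobox genes outside the Hox clusters, 19 (17.9%) were low-dose only, 20 were covered in all 4 lines, 22 had another pattern and 45 none. Barhl1, a homeobox gene of sensory neurons, had 50 bp (parental), 1100 bp (R100), 963 bp (R500) and 50 bp in each of R1000 and R4000. Onecut1, a liver and pancreas factor, had 0, 823, 750, 100 and 50 bp. Tlx1, needed for spleen development, had 175, 575, 1075, 0 and 0 bp, and Pax6, of eye and brain, had 150, 1053, 550, 50 and 0 bp. The 106 entries stand for 103 symbols, since some symbols have more than 1 gene identifier.

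The Hox clusters held more entries covered in every resistant line than low-dose-only ones. Of 40 Hox entries, 6 (15%) were low-dose only, 19 were covered in all 4 lines and 6 in none. The low-dose-only members were Hoxb6, Hoxd12, Hoxa4, Hoxd9, Hoxa2 and Hoxb4, from 3 of the clusters. Hoxb6 had 0 bp (parental), 1000 bp (R100), 701 bp (R500), 0 bp (R1000) and 50 bp (R4000). Hoxa4 had 0, 650, 500, 0 and 0 bp.

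Of 41 Sox, T-box and Gata genes, 8 (19.5%) were low-dose only and 3 were covered in all 4 lines. Gata2, a factor of blood stem cells, had 0 bp (parental), 1066 bp (R100), 650 bp (R500), 0 bp (R1000) and 100 bp (R4000). Tbx15 had 350, 950, 400, 0 and 0 bp, and Sox21 had 50, 449, 400, 0 and 0 bp. Tbx21 (T-bet) and Gata3, which direct T helper cell fates, were covered at shorter lengths. Tbx21 had 250 bp (R100) and 300 bp (R500), Gata3 had 290 and 150 bp, and both had 0 bp upstream in the other lines. In the 2 kb on both sides of the TSS, Tbx21 stayed low-dose only, whereas Gata2, Tbx15 and Sox21 were covered in all 4 lines. Gata3 had 900, 1050, 1300, 150 and 0 bp there, so the parental line and R1000 covered it too. Of 43 forkhead genes, 5 (11.6%) were low-dose only upstream, and beside Foxb1 and Foxb2 these were Foxe1, Foxd4 and Foxm1. Of 48 bHLH genes of neurogenesis and mesoderm, 5 (10.4%) were low-dose only upstream, led by Neurod2 with 0, 1101, 850, 0 and 100 bp. In the 2 kb to each side 14 of the 48 were covered in all 4 lines. Neurod2 was among these 14, with 200, 1689, 1039, 300 and 639 bp.

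Among signalling genes, Wnt ligands, receptors and antagonists were represented by 7 of 43 (16.3%), with 1 gene covered in all 4 lines. Wnt10b had 50 bp (parental), 800 bp (R100), 1100 bp (R500), 100 bp (R1000) and 0 bp (R4000). Wnt2b had 150, 600, 550, 0 and 50 bp, and Wnt9a had 50, 300, 650, 0 and 0 bp. The others were Lrp6, a Wnt co-receptor, and Wnt1, Wnt7b and Wnt8a. In the 2 kb on both sides of the TSS, 9 of the 43 Wnt genes (20.9%) were low-dose only and 10 were covered in all 4 lines. Wnt10b and Wnt1 were among those 10, Wnt10b with 431, 2231, 2320, 450 and 550 bp. Of the Fgf, Bmp and Gdf ligands 1 of 43 (2.33%) was low-dose only upstream, Fgf18, with 450 bp (R100), 200 bp (R500) and 0 bp elsewhere. Of the ephrins and Eph receptors 2 of 23 (8.7%) were low-dose only upstream, Efna1 and Epha2. In the 2 kb on both sides of the TSS both were covered in all 4 lines, and none of the 23 was low-dose only. Among matrix metalloproteinase and Timp genes the upstream count was 3 of 27 (11.1%), namely Mmp24, Timp2 and Mmp23. Mmp24 had 0, 350, 600, 50 and 100 bp.

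Genes of neuronal membranes were closer to the background. Of 95 potassium channel genes, 6 (6.32%) were low-dose only. Kcnh2, which carries the rapid repolarizing current of the heart, had 50 bp (parental), 650 bp (R100), 600 bp (R500), 0 bp (R1000) and 50 bp (R4000), and Kcnc1 had 300, 500, 1150, 0 and 0 bp. Of 47 glutamate and GABA receptor genes 2 (4.26%) were low-dose only, Grm4 and Grin2d, and of 36 protocadherin genes 1 (2.78%), Pcdh1.

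**Figure D5:**
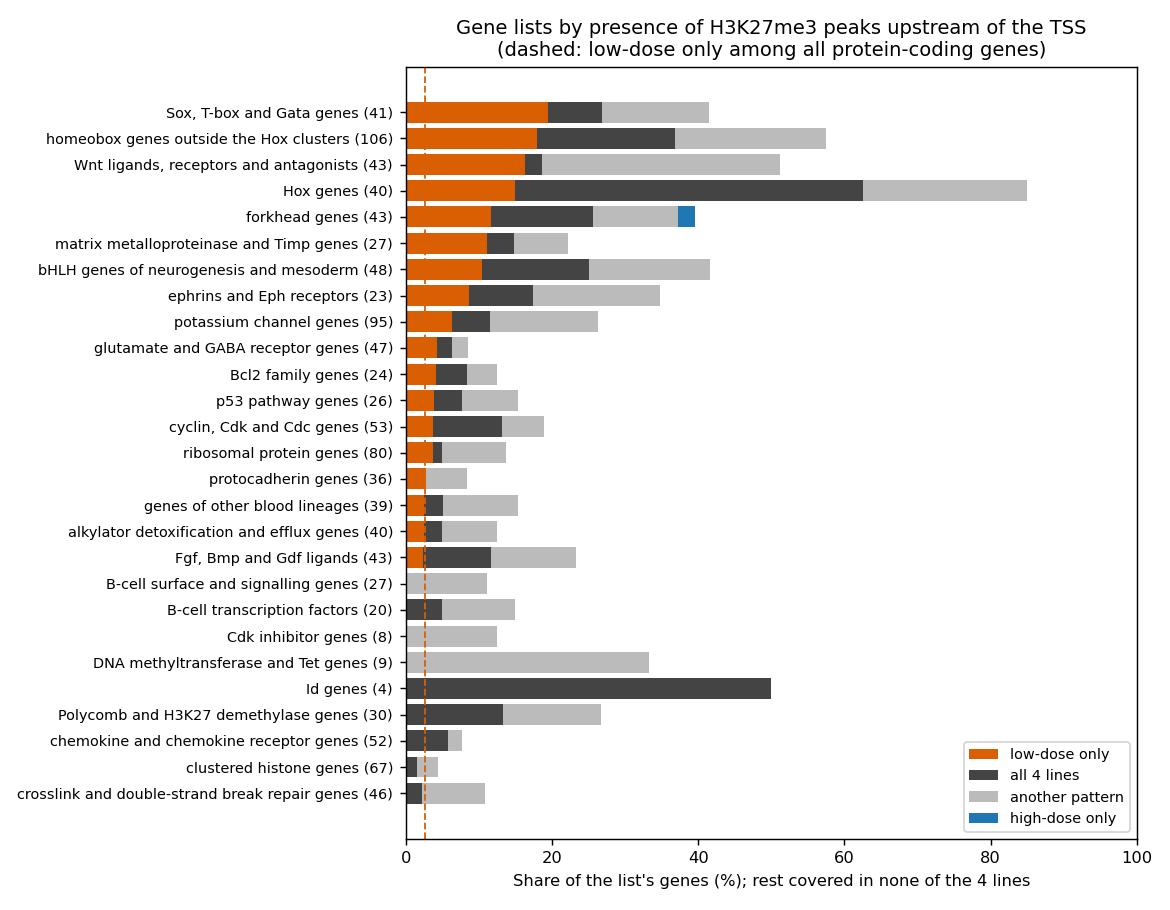
Share (%) of each of the 27 gene lists that was low-dose only, covered in all 4 resistant lines, covered in another pattern, or high-dose only, with the number of entries in brackets. The dashed line is the 2.59% of all protein-coding genes that were low-dose only. Sox, T-box and Gata genes (19.5%) and homeobox genes outside the Hox clusters (17.9%) have the longest low-dose-only bars.

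Lists of B-cell genes had no low-dose-only member in the upstream window. Of 27 B-cell surface and signalling genes, 24 were covered in none of the 4 resistant lines and 0 were low-dose only, and of 20 B-cell transcription factors 17 were covered in none and 0 were low-dose only. Of all 22380 protein-coding genes 19868 were covered in none, so both lists were near the share of all genes. In the window of 2 kb before and after the TSS, 5 of these 20 factors were low-dose only, beside the 4.2% of all protein-coding genes, namely Tcf3, Irf4, Irf8, Ikzf1 and Klf2. Of the 20 factors, 10 were covered in none and 2 in all 4 lines there. In the same window the low-dose-only count was 1 with lists of equal number and 0 at equal covered length. Tcf3, which encodes the B-lineage factor E2a, had 0 bp upstream in all lines, and within 2 kb it had 200 bp (R100), 300 bp (R500) and 0 bp in the other lines. Irf4, of activated B cells and plasma cells, had within 2 kb 0 bp (parental), 500 bp (R100), 150 bp (R500), 0 bp (R1000) and 50 bp (R4000). Of 39 genes of other blood lineages only Tcf7 (2.56%), a T-cell factor, was low-dose only upstream. It had 100 bp (parental), 450 bp in each of R100 and R500 and 0 bp (R1000 and R4000). Expression of these genes was not analysed here.

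Genes of growth control and drug response were low-dose only at shares near the 2.59% of all protein-coding genes in the upstream window. Of 53 cyclin, Cdk and Cdc genes 2 (3.77%) were low-dose only. Cdk6, a G1 kinase, had 250 bp (parental), 650 bp (R100), 800 bp (R500), 0 bp (R1000) and 50 bp (R4000), and Cdc14b, a phosphatase, had 150, 520, 500, 0 and 0 bp. Of 24 Bcl2 family genes only Hrk (4.17%), a BH3-only promoter of apoptosis, was low-dose only, with 0, 350, 250, 100 and 0 bp, and of 26 p53 pathway genes only Gadd45g (3.85%) was. Among 40 genes of alkylator detoxification and efflux only Aldh1a3 (2.5%), an aldehyde dehydrogenase, was low-dose only, with 200 bp in both R100 and R500 and 0 bp elsewhere. Of 80 ribosomal protein genes 3 (3.75%) were low-dose only, Rpl26, Rpl23a and Rpl17. These counts were larger in the window of 2 kb before and after the TSS, where 4.2% of protein-coding genes were low-dose only. There 4 of the 53 cyclin, Cdk and Cdc genes (7.55%), 2 of the 24 Bcl2 family genes (8.33%), 3 of the 26 p53 pathway genes (11.5%) and 5 of the 40 alkylator genes (12.5%) were low-dose only. The 5 alkylator genes were Aldh1a3, the transporter genes Abcc4, Abcb1a and Abcb1b, and the glutathione transferase gene Gstt1. Abcb1b had 0, 400, 200, 0 and 0 bp in that window. Of the 80 ribosomal protein genes 9 (11.2%) were low-dose only there, 27 were covered in all 4 lines and 10 in none, against 69 in none upstream.

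None of the 46 crosslink and double-strand break repair genes, 8 Cdk inhibitor genes, 30 Polycomb and H3K27 demethylase genes, 9 DNA methyltransferase and Tet genes, 67 clustered histone genes, 52 chemokine and chemokine receptor genes or 4 Id genes was low-dose only. Id2, an inhibitor of E2a, was covered in every line, with 1407 bp (parental), 2457 bp (R100), 2957 bp (R500), 1557 bp (R1000) and 2007 bp (R4000). Myc had 0, 600, 550, 100 and 200 bp and missed the group through R4000. Dnmt3b had 200 bp in R100 alone, Dnmt3a had 200 bp (R100), 100 bp (R500) and 50 bp (R4000), and Ezh2 had 50 bp in R1000 alone. Suz12, Mtf2, Uty, Cdkn2a, Cdkn1a, Bbc3, Dnmt3l and Trp53 had 0 bp upstream in all lines. In the 2 kb before and after the TSS, 1 of the 8 Cdk inhibitor genes (12.5%) was low-dose only, beside 4.2% of all protein-coding genes. This was Cdkn1b, with 0, 450, 200, 100 and 0 bp there. The other lists named in this paragraph had no low-dose-only gene in that window either.

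Genes of biotypes other than protein-coding made up 166 of the 745, out of 14930 such genes annotated. Long intergenic non-coding RNAs were 49 of them, 3.85% of the 1273 annotated, beside the 2% of all genes. The 27 miRNA genes (1.71% of 1577), 20 snoRNA genes (1.29% of 1552) and 3 immunoglobulin variable segments (0.845% of 355) were below that share. By chromosome, the protein-coding members ranged from 4.18% of the genes on chromosome 6 (49 of 1171, 95% CI 3.18 to 5.49%) to 0.322% on the X chromosome (3 of 932, 95% CI 0.11 to 0.942%).

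The upstream windows of the low-dose-only protein-coding genes had a median GC content of 48.6% and a median CpG observed to expected ratio of 0.298. Genes covered in all 4 lines had 49.1% and 0.403, and all protein-coding genes 44.8% and 0.235. The low-dose-only windows were thus near the genes covered in all lines in GC and between the other groups in CpG. The E-box CAGGTG, read on either strand, was present at 0.916 per kb of these windows, 0.834 in genes covered in all 4 lines and 0.794 in all protein-coding genes. At least 1 match was found in 98.8%, 95.7% and 96.4% of the windows, so its presence in a window of this length is common to nearly all genes. Within the bases shared by R100 and R500 it occurred at 1.18 per kb in low-dose-only genes and at 0.858 per kb in genes covered in all 4 lines, while CpG occurred at 40.5 and 43.8 per kb. These letters mark matches and not bound sites.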

How the data were processed

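H3K27me3 ChIP-seq was analysed for the parental, R100, R500, R1000 and R4000 lines. RRBS is not analysed here. Immunoprecipitated and input DNA was sequenced by the authors on an Illumina HiSeq 2000, and peaks were called against input by Poisson statistics over tiled windows. The deposited values are positions in base pairs (chromosome, start, end) on a grid of 50 bp, with no score or count. The submitters' processing notes name mm9 and Bowtie. The peak threshold and any pooling of replicates are not given in the sources used here.

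Distinct peaks were used, and the peak ends fell within the chromosome lengths of NCBIM37 (mm9). TSS came from the GENCODE annotation of that build. The 5 kb window and the 3 bins of 50 bp follow the study's methods, whose p-value limit per bin could not be applied. Coverage was computed with numpy 2.4.6 and pandas 2.3.3 (Python 3.11.15) and tested on simulated data, and figures were drawn with matplotlib 3.10.9. With 1 list per line no test was made.

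The members and gene lists were chosen with earlier results of these data known. Named genes are the 12 protein-coding low-dose-only genes with the largest smaller length of R100 and R500 and no high-dose base (1 per shared window), every high-dose-only gene, up to 4 members per list and genes of the study's main text. Genes ranked with high-dose peaks allowed, Rpl26 and Rnf2 were added after their values were seen. So were the B-cell factors, alkylator genes and Cdkn1b named within 2 kb. Spi1 was not found under that symbol. Alternatives changed the window, the minimum length, the peaks kept, the genes counted and the lines used.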

Additional observations from a re-analysis of the deposited data

Results flagged for a closer look

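The number of peaks relative to the parental list moved in opposite directions on both sides of the comparison, and the difference was not tested, with 1 list per line. R100 held 2.34 times and R500 2.03 times as many distinct peaks as the parental list, whereas R1000 held 0.89 and R4000 0.633 times as many.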

How the results depend on the processing

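No paired analysis was possible because each line has 1 peak list and no test was made. The low-dose side held more genes than the high-dose side in every setting except lists of equal covered length. Using 2 kb on both sides of the TSS gave 1140 low-dose-only and 2 high-dose-only genes, 13.1% of the former were covered in the parental line, and 5 of the 12 named genes stayed low-dose only. A minimum of 50 bp gave 16 high-dose-only genes and a parental share of 22.4%, and a minimum of 300 bp gave 4 and 13.8%. Counting absence only where no base was covered gave 347 and 0 genes, with a parental share of 13%. Lists of equal number gave 399 and 11 genes and 21.8%, and peaks of at least 500 bp gave 364 and 0 genes and 14.3%. Joining peaks within 1000 bp gave 2 high-dose-only genes. Lists of equal covered length gave 12 and 271 genes, a parental share of 50%, 1 of the 27 gene lists with a low-dose-only gene (18 with full lists) and 0 of the 12 named genes. Both combinations with the window of 2 kb on both sides were added after seeing the data. With lists of equal number 14 genes were high-dose only and 5 named genes stayed, and at equal covered length there were 7 low-dose-only and 446 high-dose-only genes, a parental share of 57.1%, 1 gene list and 0 named genes. Leaving out 1 line at a time gave 889 to 1513 low-dose-only genes, 6 to 55 high-dose-only genes and parental shares of 11.5 to 30.6%. The share of low-dose-only genes with no high-dose peak near the TSS was 31.7% within 2 kb and 14.2% within 20 kb. Depth is unknown, so a gene without a peak in a list is not shown to lack H3K27me3.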
